A study of Mus musculus with 18 samples.

Results

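Polypoid dysplasia and non-dysplastic colonic epithelium from mice fed folic acid (FA)-supplemented chow were compared across all genes. The comparison took the 5 libraries titled as polypoid lesions on 8 mg/kg FA (8P) and the 5 libraries titled as non-dysplastic on the same chow (8ND), 10 of the 18 libraries of the series, and 20787 of 55453 gene names had enough counts to be tested. All 10 came from female Swiss Webster mice that had been injected with azoxymethane (AOM) at 7 weeks of age and given dextran sulfate sodium (DSS) from 9 weeks, in 4 cycles of 7 days at 2% in the drinking water and 14 days of plain water. The mice ate 2 mg/kg FA until 11 weeks and 8 mg/kg FA for the next 16 weeks, and were killed at 27 weeks. Epithelial cells were laser microdissected (LMD) from formalin-fixed, paraffin-embedded colon, and each library was made from 40 ng of total RNA. AOM, DSS and the 8 mg/kg chow were thus shared by both groups, so that 8ND is the epithelium of a carcinogen-treated, colitic colon and not of an untreated one. The labels do not say which mouse gave which library or whether a lesion and its 8ND counterpart came from 1 animal, so that p-values measure the spread between these libraries. The remaining 8 libraries, 4 of polypoid dysplasia (0P) and 4 of non-dysplastic epithelium (0ND) from mice on FA-free chow, shared the fit and are used only where the folic acid chow is set beside the FA-free one.

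AOM is converted in the body to an alkylating agent, and DSS injures the mucosa, so that the pair gives inflammation-driven tumors. In this model the lesions commonly carry activating changes in β-catenin, the effector of canonical Wnt signaling. With T-cell factor/lymphoid enhancer factor (TCF/LEF) proteins, β-catenin switches on a program that normally stays near the crypt base, and part of that program encodes inhibitors of the pathway itself. In a healthy crypt the cells that leave the base stop dividing and become absorptive colonocytes, which take up salt, water and short-chain fatty acids, or secretory cells, which are chiefly mucus-making goblet cells with scattered hormone-making enteroendocrine cells and tuft cells.

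Total counts assigned to genes ranged from 3500947 to 11422650 in 8ND and from 8664822 to 15555221 in 8P, and the shallowest library was 8ND 4. Values of single genes below are TMM-scaled CPM (counts per 1000000 counts of a library), given for replicates 1 to 5 in turn. Sums over gene lists are CPM without TMM scaling. Differences are log2 fold changes (8P minus 8ND) ± SE, and each adjusted p is the Benjamini-Hochberg value of edgeR's quasi-likelihood test over all 20787 genes, with 0.05 as the threshold. Over the 10 libraries the leading principal component held 46.4% of the variance and put the 5 8P libraries between 34.6 and 59.5. The 8ND libraries lay between -71.5 (8ND 3) and -30.8 (8ND 2), with 8ND 1 at -33.9 the next nearest to dysplasia. Without both 8ND 1 and 8ND 2 the number of genes past the threshold went from 5869 to 5167, and no gene called with all libraries changed its sign. Markers of epithelium were detected in every library, with sums of 3901 to 5677 CPM in 8ND and 3412 to 4070 CPM in 8P over 13 markers, of which 8 fell and 2 rose (median -0.55). Epcam, an adhesion protein of epithelium, was not called and read 808, 488, 765, 423 and 716 CPM in 8ND and 541, 595, 571, 832 and 516 CPM in 8P, with a log2 difference of -0.07 ± 0.18 (adjusted p = 0.82). The summed markers of smooth muscle and of B and plasma cells were lower in every 8P library than in any 8ND library, with medians of 1188 and 522.4 CPM for smooth muscle and 4943 and 1315 CPM for B and plasma cells (8ND first), and their part in the differences below was not tested.

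Of the 20787 genes tested, 5869 (28.2%) passed the threshold, 2894 (13.9%) higher and 2975 (14.3%) lower in 8P. With a limit of 2-fold added, 2568 genes (12.4%) remained, of which 1071 (5.15%) were higher and 1497 (7.2%) were lower. Differences of at least 8-fold were found for 76 genes that rose and 90 that fell, and the median over all tested genes was 0.00198. In 3574 genes (17.2%) the 5 values of 1 group did not overlap the 5 of the other, 1716 (8.26%) with 8P on top and 1858 (8.94%) with 8ND on top. Among genes of at least 100 CPM on average 42.7% were called, against 16.4% of genes below 1 CPM. The called share was 32.2% for protein-coding genes and 19.2% for long non-coding genes.

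**Figure D1:**
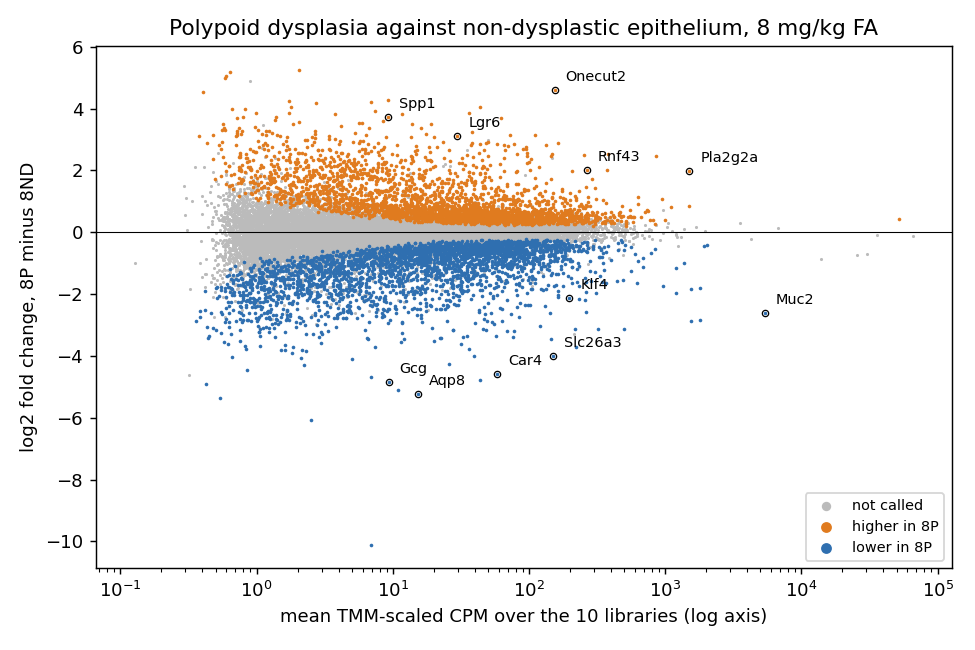
Log2 fold change (8P minus 8ND, vertical axis) against mean abundance over the 10 libraries (TMM-scaled CPM, log axis) for the 20787 tested genes. Orange points are the 2894 genes higher and blue points the 2975 genes lower at an adjusted p of 0.05, grey points did not pass, and the named points include Onecut2 at 4.59, Rnf43 at 2.01, Muc2 at -2.60 and Aqp8 at -5.24.

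Genes listed as inhibitors of the Wnt pathway, some of them Wnt targets themselves, were among the most clearly raised in dysplasia. Of 12 genes so listed and tested, 9 rose and none fell, with a median log2 fold change of 1.94. Rnf43 read 128, 146, 64.5, 100.9 and 87.1 CPM in 8ND and 441, 377, 389, 518 and 398 CPM in 8P. Rnf43, on chromosome 11 (mm10, 87662722 to 87735539), encodes a ubiquitin ligase that removes Frizzled receptors from the cell surface, and its difference was 2.01 ± 0.19 (adjusted p = 3.1e-06), with no 8ND value above 146 and no 8P value below 377. Axin2 read 109, 97.4, 57.4, 75.5 and 81.5 CPM in 8ND and 353, 313, 269, 464 and 249.6 CPM in 8P. Axin2 is a scaffold of the complex that degrades β-catenin and differed by 1.97 ± 0.21 (adjusted p = 4.6e-06), again without overlap between the groups. Znrf3, the partner ligase of Rnf43, rose by 1.37 ± 0.18, and Apcdd1, a membrane inhibitor of Wnt reception, by 1.91 ± 0.33.

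Nkd1 read 130.4, 132, 7.62, 48.9 and 61.8 CPM in 8ND and 462, 521, 302, 492 and 388 CPM in 8P. Nkd1 binds Dishevelled inside the cell and rose by 2.50 ± 0.51 (adjusted p = 0.0017), while its paralog Nkd2, at 6.03 CPM or less in every library, differed by 0.08 ± 0.40 (adjusted p = 0.9). Notum read 24.5, 19.3, 0.107, 12.3 and 14.6 CPM in 8ND and 83.2, 109, 53.6, 193 and 73.2 CPM in 8P. Notum is a secreted enzyme that removes the lipid from Wnt ligands and rose by 2.85 ± 0.63 (adjusted p = 0.0034), with its lowest value in 8ND 3. As the strand setting of the counting is not given in the sources used here, reads of Notum and of its antisense neighbor Notumos could not be separated. Kremen1 (0.16) and Trabd2b (-0.18) were, with Nkd2, the members not called. Among the secreted proteins on the list, Dkk2 rose by 2.85 ± 0.39, Wif1 by 2.52 ± 0.58 and Dkk3 by 1.09 ± 0.21. In 8ND 3 the summed level of the 12 inhibitors was the lowest of all 10 libraries at 233.6 CPM, and over 8ND it reached 720.5 CPM, against 1697 to 2330 CPM in 8P. The B and plasma cell sum was highest in that library, at 9991 CPM, and without it 9 of the 12 inhibitors still rose.

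**Figure D2:**
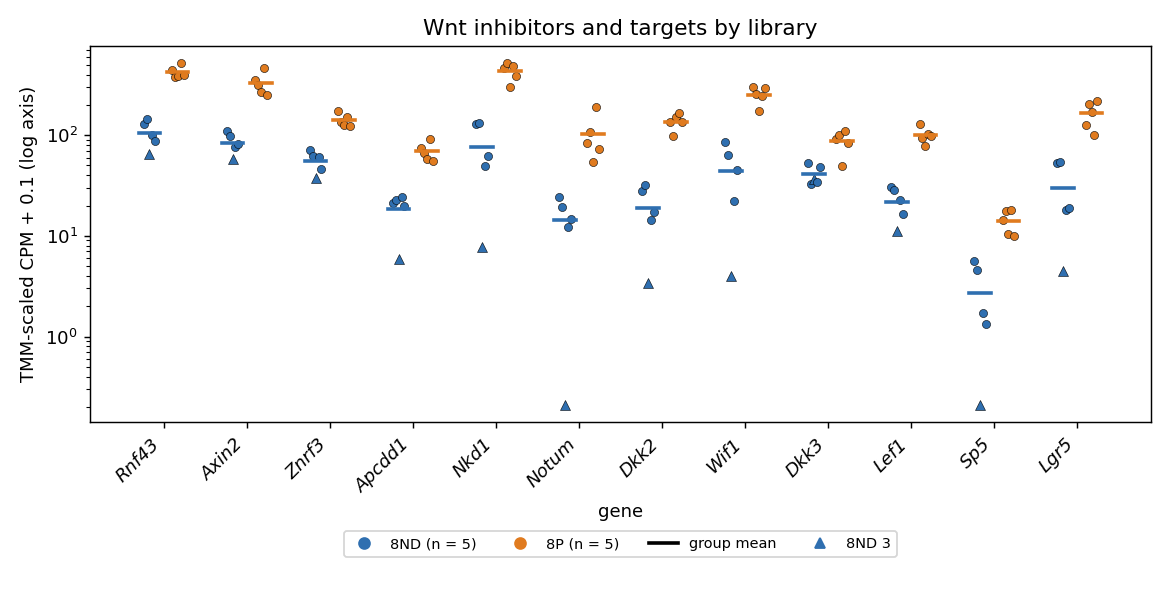
TMM-scaled CPM + 0.1 (log axis) of 12 Wnt pathway genes in each library, with 1 point per library, 8ND in blue and 8P in orange, and a bar at the group mean. For Rnf43 the 8ND points end at 146 and the 8P points begin at 377, and 8ND 3, drawn as a triangle, is the lowest 8ND point for every gene shown except Dkk3.

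The transcription factors and surface proteins that Wnt signaling is known to induce moved the same way. Of 22 tested, 19 rose and none fell, with a median of 1.66. Lef1 read 30.1, 28.7, 10.9, 22.4 and 16.5 CPM in 8ND and 129, 92.8, 77.3, 103 and 98.5 CPM in 8P. Lef1 is 1 of the DNA-binding partners of β-catenin, and the difference was 2.20 ± 0.25 (adjusted p = 1.2e-05). Tcf7, a second such partner, rose by 1.61 ± 0.22, whereas Tcf7l2, the partner most used in normal intestine, fell by 0.37 (adjusted p = 0.044). Sp5 read 5.53, 4.52, 0.107, 1.602 and 1.23 CPM in 8ND and 14.2, 17.6, 10.3, 17.9 and 9.93 CPM in 8P. Sp5 is a zinc-finger factor that Wnt signaling induces directly, and it rose by 2.40 ± 0.49 (adjusted p = 0.0016). Prox1 read 226, 149, 26.2, 72.6 and 84.1 CPM in 8ND and 823, 689, 445, 643 and 628 CPM in 8P. Prox1, a homeobox factor switched on in colonic adenomas, rose by 2.53 ± 0.41 (adjusted p = 0.00026), and Sox4, an HMG-box factor, rose by 2.01 ± 0.30. Nav2 (1.72), Tbx3 (2.28), Enc1 (0.81), Myc (0.73) and Ccnd1 (0.48), the last 2 encoding a growth regulator and a D cyclin, rose as well. Without 8ND 3, 16 of the 22 rose. Zfp703, Bambi and Ephb3 were the 3 members not called, at 0.32, 0.35 and 0.41. With single libraries left out, Tcf7l2 was no longer called without 8ND 1, 8ND 3, 8ND 5, 8P 1, 8P 2, 8P 4 or 8P 5 (adjusted p up to 0.13), and Ccnd1 was no longer called without 8ND 3, 8ND 4, 8ND 5, 8P 3, 8P 4 or 8P 5 (adjusted p up to 0.15).

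The promoters of the Wnt genes are shown because so many of them moved together. RefSeq windows from 250 bases before to 50 bases after the start (GRCm38.p6) were at hand for 21 of the 36 genes on the 2 lists. The TCF/LEF motif CTTTGAT, searched on both strands, was found in windows of Sp5, Tnfrsf19 and Mmp7, which is 14.3% of the 21. It was in 3.73% of all 32851 windows, in 3.44% of tested genes with a window, in 5.45% of genes raised at least 2-fold and in 3.14% of genes lowered at least 2-fold, without a test. The AP-1 motif TGACTCA lay in 5.2% of all windows and in that of Mmp7, apart from its TCF/LEF match. Among tested genes with a window the AP-1 share was 5.15%. It was 9.26% of genes raised at least 2-fold and 7.52% of genes lowered at least 2-fold, also without a test. Capitals below mark both motifs on either strand, and Axin2, whose window held neither, is shown beside them. The windows are chr2:70474673-70474972 on the plus strand for Sp5, chr14:61037938-61038237 on the minus strand for Tnfrsf19, chr9:7691840-7692139 on the plus strand for Mmp7 and chr11:108920099-108920398 on the plus strand for Axin2.
Sp5: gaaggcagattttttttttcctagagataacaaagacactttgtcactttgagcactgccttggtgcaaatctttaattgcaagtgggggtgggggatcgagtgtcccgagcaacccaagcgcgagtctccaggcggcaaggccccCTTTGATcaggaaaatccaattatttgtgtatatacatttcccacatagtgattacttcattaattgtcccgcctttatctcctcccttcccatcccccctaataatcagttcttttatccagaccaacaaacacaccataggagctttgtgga
Tnfrsf19: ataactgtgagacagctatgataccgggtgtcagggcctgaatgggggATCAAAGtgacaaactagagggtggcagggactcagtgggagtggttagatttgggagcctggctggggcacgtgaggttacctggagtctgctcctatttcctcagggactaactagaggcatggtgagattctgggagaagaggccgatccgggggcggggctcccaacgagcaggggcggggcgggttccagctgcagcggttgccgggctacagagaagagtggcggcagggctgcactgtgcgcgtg
Mmp7: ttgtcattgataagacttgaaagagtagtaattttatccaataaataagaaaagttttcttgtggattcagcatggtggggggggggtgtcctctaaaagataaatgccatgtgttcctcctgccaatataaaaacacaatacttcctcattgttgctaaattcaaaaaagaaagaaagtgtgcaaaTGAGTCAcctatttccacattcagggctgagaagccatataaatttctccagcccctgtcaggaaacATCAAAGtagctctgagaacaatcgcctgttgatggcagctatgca
Axin2: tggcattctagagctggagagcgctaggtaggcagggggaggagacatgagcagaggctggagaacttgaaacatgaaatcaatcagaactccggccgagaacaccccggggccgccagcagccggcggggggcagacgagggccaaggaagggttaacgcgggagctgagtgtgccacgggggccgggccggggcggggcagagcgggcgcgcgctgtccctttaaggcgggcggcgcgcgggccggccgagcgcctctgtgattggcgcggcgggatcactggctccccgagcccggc

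Genes that mark stem cells at the crypt base mostly rose, with exceptions. Of 17 tested, 11 rose and 2 fell, with a median of 0.81, and 6 of the 11 are also on the Wnt target list. Lgr5 read 52.7, 54.1, 4.401, 17.9 and 18.9 CPM in 8ND and 126, 206, 169.8, 100.5 and 220.4 CPM in 8P. Lgr5, the receptor for R-spondins that defines cycling colonic stem cells, rose by 2.46 ± 0.49 (adjusted p = 0.0016), without overlap between the groups. Smoc2, a secreted matricellular protein of the same cells, rose by 2.37 ± 0.40, Ascl2, the factor that drives their program, by 1.54 ± 0.27, and Msi1, an RNA-binding protein, by 1.99 ± 0.35. Aqp4 read 357, 644, 781, 778 and 345 CPM in 8ND and 56.4, 48.6, 72.5, 41.7 and 110.2 CPM in 8P. Aqp4, a water channel of deep-crypt cells in the proximal colon, went the other way by -3.14 ± 0.46 (adjusted p = 0.00013), and Rgmb, a BMP co-receptor, fell by 0.86. Lgr4, the broadly expressed relative of Lgr5, read 203, 152, 178, 148 and 175 CPM in 8ND and 159.6, 127, 149.8, 193 and 122 CPM in 8P and was not called (-0.19).

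The largest fold increases included several transcription factors and secreted or membrane proteins. Onecut2 read 21.6, 9.51, 1.18, 26.4 and 6.37 CPM in 8ND and 369, 159.8, 304, 508 and 136 CPM in 8P. Onecut2, a transcription factor of liver, pancreas and small intestine, had the highest log2 fold change of the named genes at 4.59 ± 0.65 (adjusted p = 0.00011), and all 5 8P libraries lay far above 8ND. Irx5 read 1.52, 0.713, 0, 1.602 and 1.23 CPM in 8ND and 15.1, 12.8, 4.14, 14.5 and 7.61 CPM in 8P. Irx5, an Iroquois homeobox factor, rose by 3.53 ± 0.49 (adjusted p = 5.2e-05), and Gata5, a factor of foregut and small intestine, by 2.70 ± 0.51 (adjusted p = 0.0007). Stra6, the membrane receptor through which cells take up retinol, rose from a mean of 7.59 to 69.1 CPM (3.24 ± 0.48). Tnfrsf11b read 26.4, 15.3, 5.37, 13.1 and 13.05 CPM in 8ND and 133, 68.5, 130.4, 236 and 79.99 CPM in 8P. Tnfrsf11b encodes osteoprotegerin, the soluble decoy receptor of the cytokine Rankl, and rose by 3.15 ± 0.41 (adjusted p = 4.6e-05). Spp1, the secreted phosphoprotein osteopontin, rose by 3.72 ± 0.57 from no more than 1.98 CPM in any 8ND library to at least 6.97 CPM in every 8P library.

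Ccdc33 (3.92), Ptprq (4.28), Wfdc18 (3.71), Dsg3 (3.60), Halr1 (3.52), Asprv1 (3.38) and Erich3 (3.13) completed the 12 highest fold changes under the naming rule. Ptprq read 0.415, 0.0793, 1.61, 1.87 and 1.03 CPM in 8ND and 12.01, 2.395, 7.07, 60.02 and 5.66 CPM in 8P. Ptprq, a receptor phosphatase, was the least even of them, with 8P 4 far above the other 8P libraries, and its test gave 4.28 ± 1.15 (adjusted p = 0.011). Among genes that met the naming rule the largest gain in mean CPM was that of Pla2g2a, a secreted phospholipase of Paneth cells, which went from a mean of 607 to 2405 CPM. Pla2g2a read 1187, 631, 480.4, 396 and 341 CPM in 8ND and 2607, 3871, 1334, 2378 and 1836 CPM in 8P, a difference of 1.99 ± 0.37 (adjusted p = 0.00087). Spock2, a secreted proteoglycan, had the next largest gain, from a mean of 261 to 1452 CPM (2.47 ± 0.73), with 8ND 3 at 8.16 CPM and 8ND 1 at 648 CPM. Tcf4 (1.14), Pabpc1 (0.83) and Ncl (0.73), a helix-loop-helix factor, a poly(A)-binding protein and the nucleolar protein nucleolin, were next among abundant genes.

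A list of squamous and regeneration genes held keratins, desmosomal proteins and small proline-rich (Sprr) proteins. Of its 13 members tested, 7 rose, 6 were not called and none fell, with a median of 1.93. Without a filter on low counts 4 of them rose, and Dsc3 was no longer called without 8ND 2, 8ND 3, 8ND 5, 8P 2, 8P 3 or 8P 5 (adjusted p up to 0.082). Krt23 read 16.04, 12.1, 4.62, 6.94 and 7.19 CPM in 8ND and 64.5, 62.4, 32.8, 129.9 and 41.5 CPM in 8P. Krt23 rose by 2.81 ± 0.39 (adjusted p = 7.6e-05) and did not overlap between groups. Krt7, a keratin of simple glandular epithelium outside the gut, rose by 1.19 ± 0.20, Krt17 by 2.68 ± 0.53 and Krt14 by 1.67 ± 0.51, while Trp63, the master factor of stratified epithelium, and Krt5 had too few counts to be tested. In the list of fetal and regenerative epithelium 7 of 19 rose and 1 fell, with a median of 0.42. Il33 rose by 1.74 ± 0.27 and Clu by 2.03 ± 0.56, but Ly6a (0.11) and Anxa1 (0.42), 2 widely used markers of the repairing epithelium, were not called.

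Absorptive colonocyte genes were lost on a broad front. Of 35 tested, 28 fell and 1 rose, with a median of -1.68. In 25 of the 35 the groups did not overlap, as in 17.2% of all genes. Slc26a3 read 219.7, 403, 240.2, 332 and 223 CPM in 8ND and 28.3, 11.8, 14.4, 6.403 and 28.2 CPM in 8P. Slc26a3 is the apical chloride/bicarbonate exchanger of surface colonocytes, and it fell by 3.99 ± 0.54 (adjusted p = 7.2e-05). Aqp8 read 17.7, 37.8, 38.6, 17.1 and 37.3 CPM in 8ND and 0.894, 0.871, 1.06, 0.141 and 1.02 CPM in 8P. Aqp8, a water channel on chromosome 7 (mm10, 123462291 to 123468004), had the lowest log2 fold change of the named genes, -5.24 ± 0.73 (adjusted p = 8.8e-05), and no 8P library reached 1.10 CPM. Car4, the carbonic anhydrase on the apical membrane, fell from a mean of 112 to 4.77 CPM (-4.57 ± 0.66), and Guca2a, the peptide guanylin, from 82.4 to 9.41 CPM (-3.14 ± 0.39). Gucy2c, the guanylin receptor, fell by 1.16.

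Sodium uptake did not move as 1 block. Slc9a3 read 102, 162, 129, 146 and 128 CPM in 8ND and 482, 356, 219, 384 and 225 CPM in 8P. Slc9a3, the main apical sodium/proton exchanger, was the only member of the absorptive list that rose, by 1.32 ± 0.19 (adjusted p = 6.8e-05), and Slc9a2, its relative, fell from a mean of 89.1 to 26.3 CPM (-1.76 ± 0.28). The α subunit of the epithelial sodium channel, Scnn1a, fell from 54.1 to 16.4 CPM (-1.73 ± 0.20). Scnn1b (-0.59) and Scnn1g (-0.90), the β and γ subunits, were scarce and uneven within 8ND, between 0.0793 and 9.55 CPM, and were not called. Car1 and Car2, the cytosolic carbonic anhydrases, were also not called (-1.14 and -0.62).

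Short-chain fatty acids made by bacteria are the main fuel of colonocytes, and genes for their uptake and oxidation were lower. Of 26 tested, 18 fell and 1 rose, with a median of -0.66. Slc5a8 read 191, 173, 336, 172 and 208 CPM in 8ND and 31.8, 31.5, 31.8, 14.99 and 21.2 CPM in 8P. Slc5a8 carries butyrate into the cell with sodium, and the difference was -3.04 ± 0.31 (adjusted p = 6.8e-06), whereas Slc16a1, the proton-coupled carrier, fell by 1.05. Ppargc1b and Ppara, a coactivator and a nuclear receptor of fatty acid oxidation, fell by 1.63 and 1.87 on the log2 scale, and Pck1, the enzyme that starts gluconeogenesis, by 3.61. Acadl, a long-chain acyl-CoA dehydrogenase, was the one that rose (0.55). Acadl was no longer called without 8P 3 (adjusted p = 0.06).

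Enzymes that handle foreign compounds fell in a similar proportion, 25 of 38 tested, while 5 rose, with a median of -1.59. Sult1a1 read 62.5, 64.1, 60.6, 58.7 and 91.02 CPM in 8ND and 7.41, 4.79, 3.33, 2.32 and 6.59 CPM in 8P. Sult1a1, a phenol sulfotransferase, fell by 3.78 ± 0.43 (adjusted p = 1.5e-05). Maoa and Maob, the mitochondrial amine oxidases, fell by 1.75 and 2.70, and Cyp2s1 by 2.48. Ahr, the receptor for aryl hydrocarbons, rose by 0.66 ± 0.12 while Nr1i2, the xenobiotic receptor Pxr, fell by 0.96. Cyp2b10, which rose (3.14), read at most 2.62 CPM in any library, and Cyp2c55 ranged from 9.96 to 174 CPM within 8ND alone before falling by 4.76.

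Among the transcription factors that hold intestinal identity, 10 of 20 tested fell and 3 rose, with a median of -0.48. Klf4 read 357, 312, 319, 282 and 346 CPM in 8ND and 85.9, 65.1, 63.4, 53.8 and 98.6 CPM in 8P. Klf4, a zinc-finger factor of post-mitotic colonocytes and goblet cells on chromosome 4 (mm10, 55527143 to 55532466), fell by 2.14 ± 0.18 (adjusted p = 1.0e-06), among the smallest p-values of the comparison. Cdx1 and Cdx2, the caudal factors of hindgut identity, fell by 1.79 and 1.97, and Vdr, the vitamin D receptor, by 2.34. Hnf4a and Hnf4g fell less, by 0.91 and 1.23. Klf5 (-0.10) and Gata6 (-0.04) were not called, and Foxa1 rose by 0.50 ± 0.12. Of 27 Hox genes tested only Hoxa7, which fell, was called, a share below the 28.2% of all genes.

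Goblet cell genes accounted for the largest losses of transcript. Of 27 tested, 23 fell and 1 rose, with a median of -1.83, and their summed level went from 14670 to 21660 CPM in 8ND to between 1781 and 5283 CPM in 8P. Muc2 read 10425, 6871, 6796, 9423 and 12924 CPM in 8ND and 1359, 2370, 800.5, 399 and 2748 CPM in 8P. Muc2, on chromosome 7 (mm10, 141690340 to 141754693), encodes the gel-forming mucin of colonic mucus and fell by 2.60 ± 0.43 (adjusted p = 0.00032), with its lowest value in 8P 4 and its highest 8P value in 8P 5. Fcgbp read 4017, 1905, 5072, 1758 and 2960 CPM in 8ND and 914, 582, 169, 212 and 312 CPM in 8P. Fcgbp, a mucus protein bound to Muc2, fell by 2.84 ± 0.49 (adjusted p = 0.00053). Both factors that direct the goblet lineage were lower, Spdef by 2.47 and Atoh1 by 2.03, and neither overlapped between groups. Atoh1 read 58.9, 37.02, 40.1, 45.1 and 53.01 CPM in 8ND and 10.2, 12.6, 11.2, 3.799 and 19.7 CPM in 8P. Zg16 fell by 3.13, Agr2, a disulfide isomerase needed for mucin folding, by 2.16, and Retnlb, a secreted antibacterial protein, by 3.71.

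Not every mucin fell. Muc6 read 26.7, 14.7, 1.503, 8.54 and 12.3 CPM in 8ND and 121, 56.9, 18.2, 169.6 and 39.3 CPM in 8P. Muc6, a gastric gland mucin, rose by 2.66 ± 0.64 (adjusted p = 0.0056), and 8P 3, the lowest of its 8P values, lay within the 8ND range. The membrane mucins Muc3, Muc4 and Muc13 fell by 3.12, 1.42 and 0.83, and Muc1 was not called (1.27, adjusted p = 0.071). Foxa3, a goblet cell factor of the forkhead family, read 52.4, 32.97, 27.5, 32.8 and 39.04 CPM in 8ND and 32.6, 46.1, 27.6, 28.8 and 41.4 CPM in 8P, a difference of -0.07 ± 0.19 (adjusted p = 0.82). Genes of the unfolded protein response, on which secretory cells lean, fell in 6 of 20 cases and rose in none, with a median of -0.20 and a called share (30.0%) close to the 28.2% of all genes. Xbp1, the factor spliced by Ire1, fell by 0.74, Edem1 by 0.86 and Herpud1 by 1.02, and the chaperone Hspa5 was not called (0.11). With single libraries left out, Muc13 was no longer called without 8ND 1, 8ND 3, 8ND 5, 8P 1 or 8P 5 (adjusted p up to 0.074), and Muc4 was no longer called without 8P 1 or 8P 4 (adjusted p up to 0.06).

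**Figure D3:**
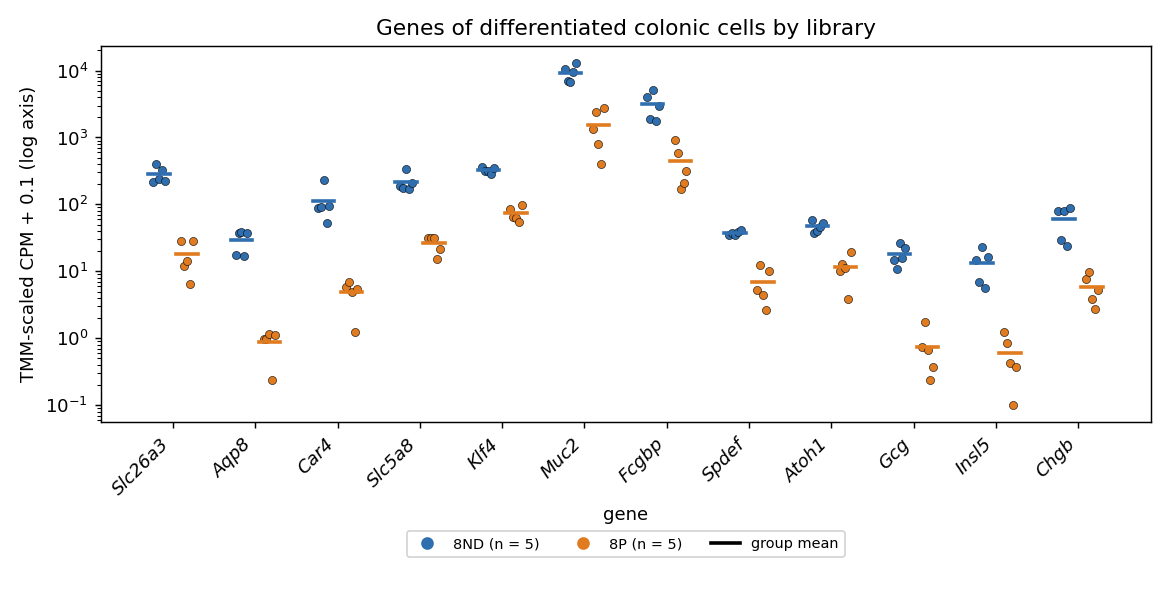
TMM-scaled CPM + 0.1 (log axis) of 12 genes of absorptive, goblet and enteroendocrine cells in each library, with 1 point per library, 8ND in blue and 8P in orange, and a bar at the group mean. No 8P point reaches an 8ND point for any of the 12, and the fall is largest for Aqp8 (-5.24) and Gcg (-4.85).

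Enteroendocrine genes fell most as a group. Of 19 tested, 16 fell and none rose, with a median of -2.61, and 9 further members had too few counts to be tested. Gcg read 14.8, 10.8, 26.7, 15.5 and 22.4 CPM in 8ND and 0.639, 1.63, 0.569, 0.141 and 0.278 CPM in 8P. Gcg, whose product is cut to glucagon-like peptides in L cells, fell by 4.85 ± 0.54 (adjusted p = 1.1e-05). Insl5 read 14.7, 6.82, 23.1, 5.61 and 16.2 CPM in 8ND and 1.15, 0.762, 0.325, 0 and 0.278 CPM in 8P. Insl5, a peptide of colonic L cells, fell by 4.69 ± 0.59 (adjusted p = 2.7e-05) and had no read in 8P 4. The granule proteins Chga and Chgb fell by 2.95 and 3.40, and Tph1, the enzyme of serotonin synthesis, by 1.95, with 8P 1 at 12.8 CPM inside the 8ND range. Rfx6 and Neurod1, factors of the lineage, fell by 2.61 and 2.83. Since these are bulk samples, fewer cells of a type and less RNA per cell cannot be told apart, here and for each lineage above.

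Tuft cell genes did not move together, with 4 of 17 lower and 1 higher, a called share (29.4%) close to the 28.2% of all genes. Trpm5, the cation channel of taste-like signaling, fell by 2.79 and Il17rb, the receptor for Il25, by 1.18. Dclk1 read 28.2, 29.01, 41.1, 19.8 and 30.8 CPM in 8ND and 23.1, 28.96, 25.3, 11.8 and 34.8 CPM in 8P. Dclk1, a kinase that marks tuft cells, was not called (-0.28, adjusted p = 0.43), and Avil, an actin-binding protein, rose by 2.29 ± 0.32. Of 14 Paneth-type and antimicrobial genes 2 rose and 2 fell, a share (28.6%) close to that of all genes. The 2 that fell were Mptx2 and Dmbt1, and neither was called without 8ND 3, 8P 1, 8P 3 or 8P 5. Besides Pla2g2a, Mmp7, a protease that matures defensins, rose by 2.46 ± 0.59. Lyz1 (8ND 9.08 to 115 CPM, 8P 86.9 to 276 CPM) did not pass (1.85, adjusted p = 0.15), and Reg3b ranged from 5.10 to 307 CPM within 8P (3.00, adjusted p = 0.12).

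**Figure D4:**
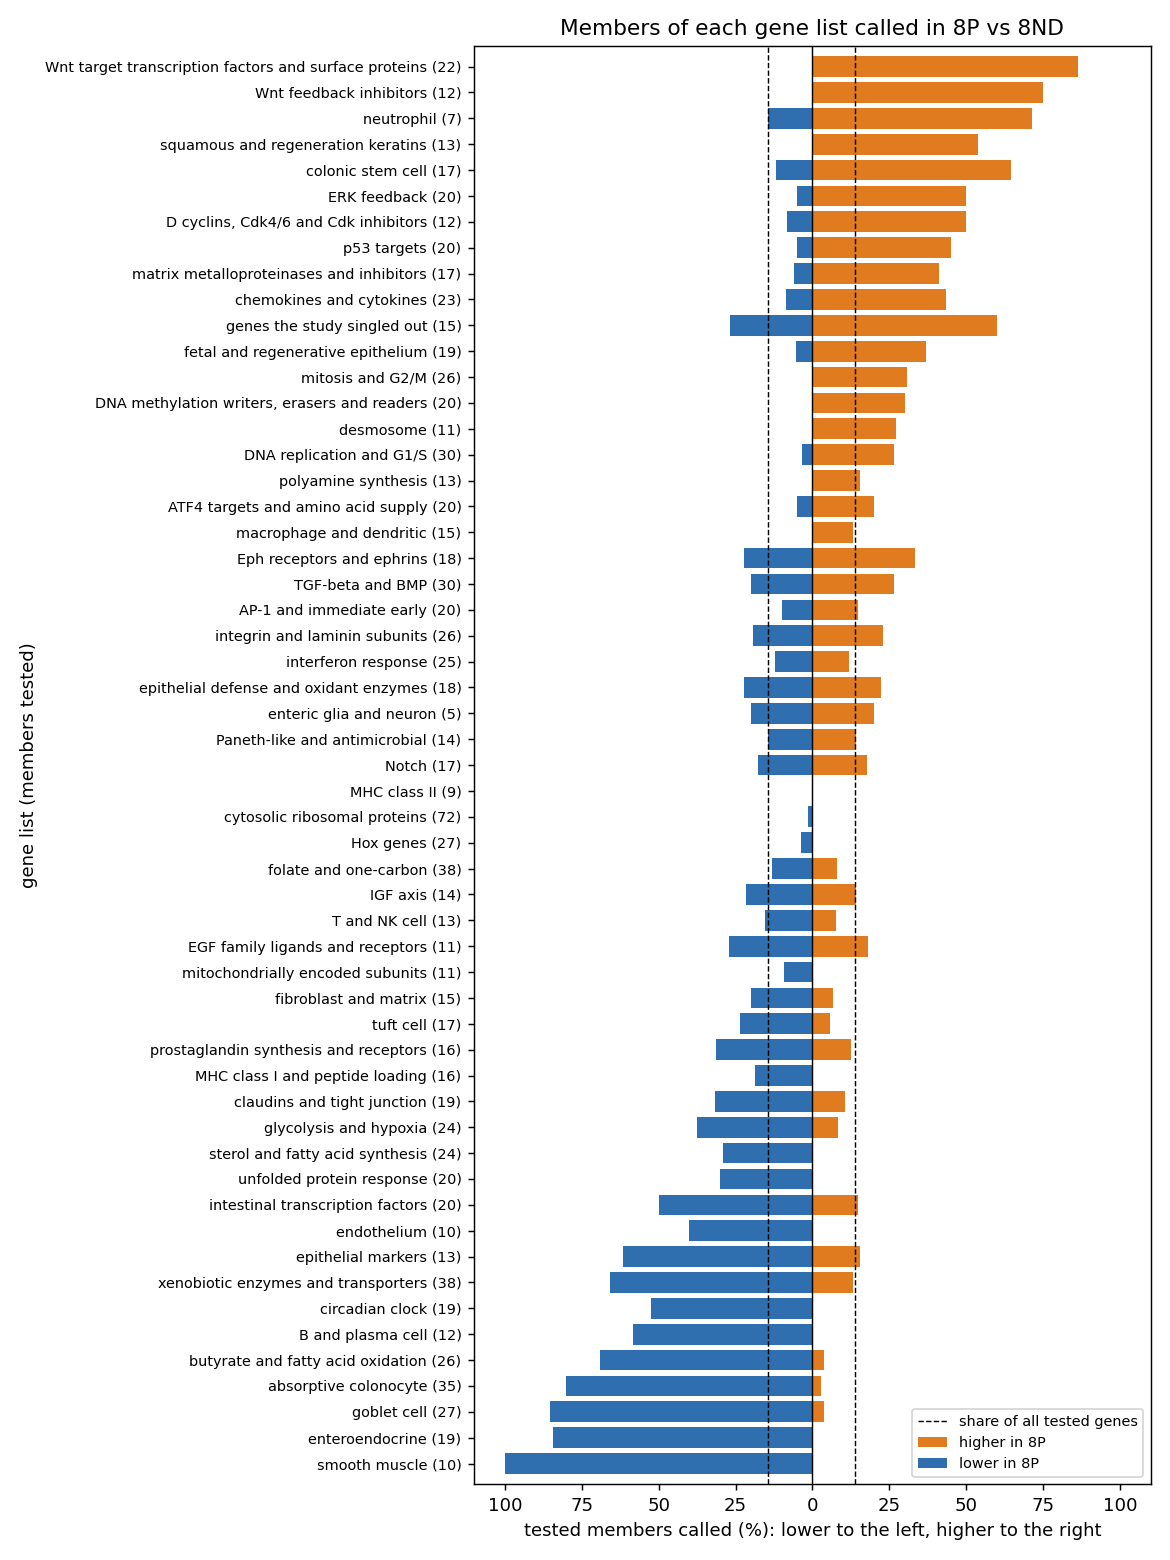
Share of the tested members of each gene list that was higher (right, orange) or lower (left, blue) in 8P, in percent, with the number of members tested beside the name. Dashed lines mark the shares over all genes, 13.9% higher and 14.3% lower, and the lists farthest from them are smooth muscle (10 of 10 lower), Wnt targets (19 of 22 higher), goblet cell (23 of 27 lower) and enteroendocrine (16 of 19 lower).

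Feedback genes of the ERK pathway, which growth factor receptors drive, rose in 10 of 20 cases and fell in 1, with a median of 0.47. Dusp4 read 37.9, 30.2, 9.34, 9.08 and 11.9 CPM in 8ND and 105.4, 61.2, 100.1, 52.1 and 58.5 CPM in 8P. Dusp4, a nuclear phosphatase of ERK, rose by 1.92 ± 0.40 (adjusted p = 0.0019), with 8ND 1 and 8ND 2 the highest of the 8ND libraries. Phlda1 rose by 1.73 ± 0.28, Etv5, an ETS factor, by 1.20 ± 0.27 and Il17rd, a membrane inhibitor, by 0.92 ± 0.16. Other standard readouts were not called, among them Dusp6 (0.19), Spry4 (0.52) and Spry2 (-0.35), and Etv1 fell by 0.81. Of 11 EGF family ligands and receptors, the ligands Btc (1.66 ± 0.22) and Tgfa (0.56 ± 0.14) rose, and Egf and the receptors Erbb2 and Erbb3 fell by 1.08, 0.70 and 0.71. Among 20 AP-1 and immediate early genes 3 rose and 2 fell, a called share below the 28.2% of all genes. The 3 that rose were Jun (1.26 ± 0.17), Ier3 (1.42 ± 0.30) and Atf3 (0.78 ± 0.26). Atf3 was no longer called without 8ND 3, 8ND 4, 8P 2, 8P 3 or 8P 4 (adjusted p up to 0.08).

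Of 30 genes of the TGF-β and BMP branches 8 rose and 6 fell. Pmepa1, a TGF-β target that dampens Smad activation, rose without overlap (1.11 ± 0.14), as did Inhbb, an activin subunit (1.87 ± 0.26), Bmp7 (1.48 ± 0.29) and Fst, the activin antagonist follistatin (1.71 ± 0.38). Id4 read 41.3, 31.9, 43.9, 36.6 and 46.5 CPM in 8ND and 11.3, 8.82, 6.25, 5.49 and 12.5 CPM in 8P. Id4, a target of BMP signaling, fell by 2.18 ± 0.26 (adjusted p = 1.2e-05), and the ligands Bmp2 and Bmp4 fell by 0.87 and 0.60. Of 17 Notch genes 3 rose and 3 fell, including Notch1 (0.49) and Nrarp, a Notch target (-0.98), and Hes1, the best known target, was not called (0.14). The called share of the Notch genes was 35.3%, near the 28.2% of all genes, and their median was -0.16. In the Eph family Ephb6, a kinase-dead receptor, rose by 2.61 ± 0.33, and the ligand Efnb2 fell by 0.48, within 6 rises and 4 falls of 18. Igf1 rose from a mean of 95.6 to 253 CPM (1.40 ± 0.31), with 8P 5 at 460 CPM, and H19 did not pass (1.76, adjusted p = 0.061), with 8P 2 at 50.7 CPM and the other 8P libraries at 12.9 CPM or less. Bmp4 was no longer called without 8ND 4 (adjusted p = 0.069).

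Proliferation genes differed by little. Mki67 read 326, 347, 449.8, 379 and 384 CPM in 8ND and 478, 369, 488, 422 and 394 CPM in 8P. Mki67, the standard marker of cycling cells, differed by 0.19 ± 0.17 (adjusted p = 0.43), and the groups overlapped. In the replication list 8 of 30 rose and 1 fell, with a median of 0.27, and in the mitosis list 8 of 26 rose and none fell, with a median of 0.40, so that the called shares lay near the 28.2% of all genes while nearly all calls were on the higher side. The summed level of the replication list did not overlap, at 523.3 to 600.8 CPM in 8ND and 630.4 to 740.7 CPM in 8P. That of the mitosis list overlapped, at 896.5 to 1299 CPM in 8ND and 1273 to 1770 CPM in 8P. The counts of 8 and 8 became 1 and 2 without both 8ND 1 and 8ND 2, a fit with fewer libraries. Single libraries moved these counts too. The replication count was 4 without 8ND 4 and 5 without 8P 4, and the mitosis count was 4 without 8ND 1, 8P 1 or 8P 4 and 5 without 8ND 2 or 8P 3. Top2a, the topoisomerase of dividing cells, rose by 0.67 ± 0.16, Mcm7, a subunit of the replicative helicase, by 0.57 ± 0.15 and Rrm2, the small subunit of ribonucleotide reductase, by 0.62 ± 0.19, while Tk1, thymidine kinase, fell by 0.71. Rrm2 was no longer called without 8ND 1, 8ND 4, 8ND 5 or 8P 4 (adjusted p up to 0.061). Of the 12 genes of the D cyclins, their kinases and the kinase inhibitors 6 rose and 1 fell. Cdkn1c read 13.8, 11.6, 4.94, 4.54 and 8.22 CPM in 8ND and 38.3, 47.8, 22.2, 70.4 and 39.9 CPM in 8P. Cdkn1c, a kinase inhibitor, rose by 2.31 ± 0.36 (adjusted p = 0.00015), more than Cdk4 (0.81) or Cdk6 (0.69), and Cdkn2a rose by 2.02 ± 0.44 from 1.87 CPM or less. Cdkn1b fell by 0.53, and Cdkn1a, the p53-induced inhibitor, was not called (0.19). Of 20 genes of the p53 response 9 rose and 1 fell, with a median of 0.49, among them Eda2r (1.85), Ccng1 (0.63), Phlda3 (1.16), Bax (0.78) and Trp53 itself (0.46), and the p53 ligase Mdm2 did not pass (0.24, adjusted p = 0.078).

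Folate enzymes and carriers, which set the supply of one-carbon units, were mostly not called. Of 38 tested, 3 rose and 5 fell, below the 28.2% of all genes, and the 5 included 2 enzymes of transsulfuration. Cbs read 55.9, 55.6, 51.6, 57.4 and 64.5 CPM in 8ND and 15.2, 23.4, 20.6, 6.895 and 22.8 CPM in 8P. Cbs, cystathionine β-synthase, fell by 1.69 ± 0.25 (adjusted p = 8.2e-05), Cth, the next enzyme, by 1.55, and Ahcyl2, an S-adenosylhomocysteine hydrolase-like protein, by 1.93. Ggh, which trims polyglutamate from folate, fell by 1.52. Tyms read 30.7, 28.7, 26.8, 27.5 and 34.3 CPM in 8ND and 29.8, 33.8, 28.02, 18.4 and 29.2 CPM in 8P. Tyms, which makes thymidylate with a folate cofactor, differed by -0.09 ± 0.15 (adjusted p = 0.7), and Mtr (0.17), Shmt1 (-0.24), Shmt2 (0.34) and the carriers Slc19a1 (-0.10) and Slc46a1 (0.14) did not pass either. Of 20 genes of DNA methylation 6 rose and none fell, a called share (30.0%) close to the 28.2% of all genes, and the 6 included the de novo methyltransferases Dnmt3a (0.48 ± 0.12) and Dnmt3b (1.03 ± 0.23) and the chromatin remodeler Hells (0.81 ± 0.15). Dnmt1, the maintenance enzyme, was not called (0.18). In polyamine synthesis Mtap, which salvages methionine, rose by 1.30 ± 0.15 and Smox by 1.10 ± 0.21. These were 2 of 13 genes, a share (15.4%) below the 28.2% of all genes, and Odc1 did not pass (-0.35).

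Of 24 glycolysis and hypoxia genes 9 fell and 2 rose, including Hk1 (-1.02), Ldha (-0.59) and the glucose carrier Slc2a1 (-0.44), against rises of Pfkfb3 (0.65) and the lactate exporter Slc16a3 (1.09). Of 24 sterol and fatty acid synthesis genes 7 fell and none rose, a share (29.2%) close to the 28.2% of all genes, the largest fall being that of Lss, at -0.71. Among 20 targets of the stress factor Atf4, 4 rose and 1, Slc1a5, fell, a called share below the 28.2% of all genes. The 4 that rose included the cystine carrier Slc7a11 (1.52 ± 0.26) and Pycr1, of proline synthesis (1.53 ± 0.32). Of 19 clock genes 10 fell and none rose, with a median of -0.71. Per1 read 29.04, 28.5, 29.8, 26.96 and 41.4 CPM in 8ND and 14.7, 21.8, 11.9, 10.8 and 19.2 CPM in 8P. Per1, a repressor of the clock, fell by 1.00 ± 0.21 (adjusted p = 0.0013) without overlap, but Nr1d1, the receptor Rev-erbα, ranged from 4.83 to 46.7 CPM within 8ND before falling by 1.90. The hour at which mice were killed is not in the labels. With single libraries left out, Slc2a1 was no longer called without 8ND 1, 8ND 2, 8ND 3, 8ND 5, 8P 3, 8P 4 or 8P 5 (adjusted p up to 0.11), Nr1d1 was no longer called without 8ND 3, 8ND 4, 8P 1 or 8P 5 (adjusted p up to 0.1), and the 7 sterol and fatty acid genes became 4 without 8ND 1, 8P 4 or 8P 5.

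Of 23 chemokines and cytokines 10 rose and 2 fell, with a median of 0.59. Cxcl2 read 0.691, 0.872, 0.215, 1.07 and 0 CPM in 8ND and 5.17, 5.12, 5.04, 4.22 and 4.64 CPM in 8P. Cxcl2, a ligand of the neutrophil receptor Cxcr2, rose by 3.18 ± 0.52 (adjusted p = 0.00018), and its relatives Cxcl5 and Cxcl1 by 2.31 ± 0.43 and 1.72 ± 0.58. Tnf rose by 1.40 ± 0.24 and Il1b by 1.88 ± 0.38. Ccl28 read 139, 114, 155, 139 and 141 CPM in 8ND and 26.95, 25.04, 34.6, 28.003 and 15.2 CPM in 8P. Ccl28, which draws IgA-secreting cells to the mucosa, fell by 2.40 ± 0.41 (adjusted p = 0.00042), and Cxcl12 by 1.52. Neutrophil markers rose in 5 of 7 cases, with their summed level at 18.28 to 28.98 CPM in 8ND and 24.69 to 91.17 CPM in 8P, the highest in 8P 2. S100a8 and S100a9 rose by 2.65 ± 0.71 and 2.65 ± 0.62, and Ly6g fell by 1.10. The part of these cells in the chemokine values was not tested. With single libraries left out, Cxcl1 was no longer called without 8ND 3, 8ND 4, 8ND 5, 8P 1 or 8P 3 (adjusted p up to 0.086), and Ly6g was no longer called without 8ND 1, 8ND 3, 8P 1, 8P 3, 8P 4 or 8P 5 (adjusted p up to 0.16).

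Of 18 defense and oxidant genes 4 rose and 4 fell. Lcn2 read 5.81, 5.79, 0.859, 3.74 and 2.47 CPM in 8ND and 31.996, 54.2, 11.5, 8.94 and 23.2 CPM in 8P. Lcn2, an iron-withholding protein of inflamed epithelium, rose by 2.79 ± 0.59 (adjusted p = 0.0021), and Wfdc18 rose with it. Pigr read 3566, 1937, 3278, 1570 and 3736 CPM in 8ND and 809, 753, 1031, 759.9 and 659 CPM in 8P. Pigr, the receptor that carries IgA across the epithelium, fell by 1.81 ± 0.27 (adjusted p = 9.4e-05), Nox1, the colonic NADPH oxidase, by 1.48 and Saa1 by 1.85, and Nos2 (0.21) and Duox2 (-0.72) were not called. Of 16 prostaglandin genes 2 rose and 5 fell. Hpgd, the enzyme that inactivates prostaglandin E2, fell by 1.87 ± 0.27 (adjusted p = 9.3e-05) and Abcc4, its exporter, rose by 1.57 ± 0.17, whereas Ptgs2, the inducible cyclooxygenase, overlapped between groups (0.07). Nox1 was no longer called without 8ND 3, 8P 1 or 8P 4 (adjusted p up to 0.13), and the 4 defense genes that rose became 2 without 8ND 2 or 8P 4.

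Class I genes, which present peptides to T cells, and the interferon response that induces them were mostly not called. Of 25 interferon response genes 3 rose and 3 fell, and of 16 class I and peptide loading genes 3 fell and none rose, both below the 28.2% of all genes. The summed level of the 16 class I genes was 781.5, 820.8, 1120, 810.9 and 935.7 CPM in 8ND and 613, 1016, 638.4, 611 and 572.1 CPM in 8P. Among the 8P libraries only 8P 2 thus reached the 8ND range, and in the fit without it 12 of the 16 fell. Psmb10 read 18.7, 14.2, 22.4, 10.9 and 16.1 CPM in 8ND and 6.13, 13.5, 7.07, 8.58 and 7.24 CPM in 8P. Psmb10, a subunit of the immunoproteasome, fell by 0.97 ± 0.23 (adjusted p = 0.0038) with all libraries, as did H2-Q1 (-1.74) and H2-Q2 (-1.90). B2m read 213, 216, 292, 150.3 and 241 CPM in 8ND and 173, 244, 189, 144 and 126 CPM in 8P. B2m, the light chain shared by class I molecules, was not called (-0.35, adjusted p = 0.25), nor were Tap1 (-0.54), the peptide transporter, and Psmb8 (-0.76). The H2 genes are near-identical copies of each other and their values are uncertain, as reads that matched several places were not counted. In 8P 2 the neutrophil sum was also the highest of the 10 libraries, and the part of those cells was not tested. Of 9 class II genes, which professional antigen-presenting cells use, edgeR, DESeq2 and limma-voom each called 0, and in edgeR 1 of them, the class II activator Ciita, was under 0.05 before adjustment. The median log2 fold change was -0.63 in the class I list and in the class II list. Every tested member of both lists had a negative value, from -1.90 to -0.22 in class I and from -1.73 to -0.29 in class II.

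Proteases and adhesion proteins differed in both directions. Of 17 metalloproteinases, activators and inhibitors 7 rose and 1 fell. Plat read 17.8, 12.8, 6.01, 5.61 and 7.81 CPM in 8ND and 77.9, 50.95, 40.6, 65.7 and 34.9 CPM in 8P. Plat, the tissue plasminogen activator, rose by 2.41 ± 0.38 (adjusted p = 0.00019), Mmp9 by 1.92 ± 0.34, Mmp10 by 1.71 ± 0.40 and Mmp14 by 0.97 ± 0.19. Of 26 integrin and laminin subunits 6 rose, among them Lama5 (1.44) and Itgav (0.61). The 5 that fell were Itga8, Itga7, Lama2, Lamc3 and Itga5. Cldn4 read 30.004, 22.7, 9.02, 17.9 and 14.3 CPM in 8ND and 76.1, 95.8, 47.4, 71.8 and 53.3 CPM in 8P. Cldn4, a claudin that tightens the barrier, rose by 1.88 ± 0.27 (adjusted p = 8.0e-05), while Cldn15 and Cldn8 fell by 1.96 and 1.86, within 2 rises and 6 falls of 19 tight junction genes. Dsg2, the main desmosomal cadherin of colon, was not called (0.24). Of 11 desmosome genes 3 rose, a share (27.3%) close to the 28.2% of all genes. Among 72 cytosolic ribosomal protein genes 1 was called, Rps27, which fell, and among 11 mitochondrially encoded genes mt-Co1 alone fell. With single libraries left out, Rps27 was no longer called without 8ND 3, 8ND 4, 8ND 5, 8P 1 or 8P 5 (adjusted p up to 0.068), mt-Co1 was no longer called without 8ND 1, 8ND 3, 8ND 5, 8P 2, 8P 3 or 8P 5 (adjusted p up to 0.1), the 5 integrin and laminin genes that fell became 3 without 8ND 5, and the 3 desmosome genes became 1 without 8ND 3 or 8ND 5.

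Markers of cells beneath the epithelium also differed between the groups. Myh11 read 623, 527, 645, 513 and 1014 CPM in 8ND and 229.8, 255, 155, 161 and 315 CPM in 8P. Myh11, smooth muscle myosin, fell by 1.57 ± 0.31 (adjusted p = 0.0011), and all 10 smooth muscle markers fell without overlap, with a summed level of 1148 to 1943 CPM in 8ND and 315.2 to 697.4 CPM in 8P. Igha read 1961, 1058, 3462, 1320 and 1737 CPM in 8ND and 352, 1016, 343, 618 and 139 CPM in 8P. Igha, the constant part of IgA, fell by 1.95 ± 0.43 (adjusted p = 0.0031), and 7 of 12 B and plasma cell markers fell, their sum going from 4025 to 9991 CPM in 8ND to between 527.7 and 3428 CPM in 8P. Igha and Igkc share sequence with other immunoglobulin segments, and reads that matched several places were not counted. Of 15 fibroblast and matrix markers 3 fell, among them Postn (-1.55), and 1 rose, a share (26.7%) close to the 28.2% of all genes. Col1a1 (8ND 155 to 221 CPM, 8P 155 to 473 CPM) and Col3a1 (-0.08) overlapped. Of 10 endothelial markers 4 fell, among them Lyve1 of lymphatic vessels (-1.86), and of 13 T and NK cell markers 1 rose and 2 fell, below the 28.2% of all genes. The 1 that rose was Gzmb, a granzyme, and Gzmb was no longer called without 8ND 1, 8ND 3, 8ND 5, 8P 1 or 8P 4 (adjusted p up to 0.16). Of 15 macrophage and dendritic markers 2 rose, among them Cx3cr1 (0.71), a share (13.3%) below the 28.2% of all genes. Csf1r and Ptprc were not called (0.15 and -0.18). The part of the underlying cells in the other gene groups was not tested. Of the 13 epithelial markers 8 fell, Vil1 by 0.67 and Krt8 by 0.55, 2 rose, and Cdh1 was not called (-0.18). Krt8 was no longer called without 8ND 3, 8P 1, 8P 3 or 8P 5 (adjusted p up to 0.088), and the 8 epithelial markers that fell became 5 without 8ND 3. The 7 B and plasma cell markers became 11 without 8P 2, the 3 fibroblast markers became 5 without 8P 5, and the 4 endothelial markers became 2 without 8ND 4, 8P 3 or 8P 4.

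**Figure D5:**
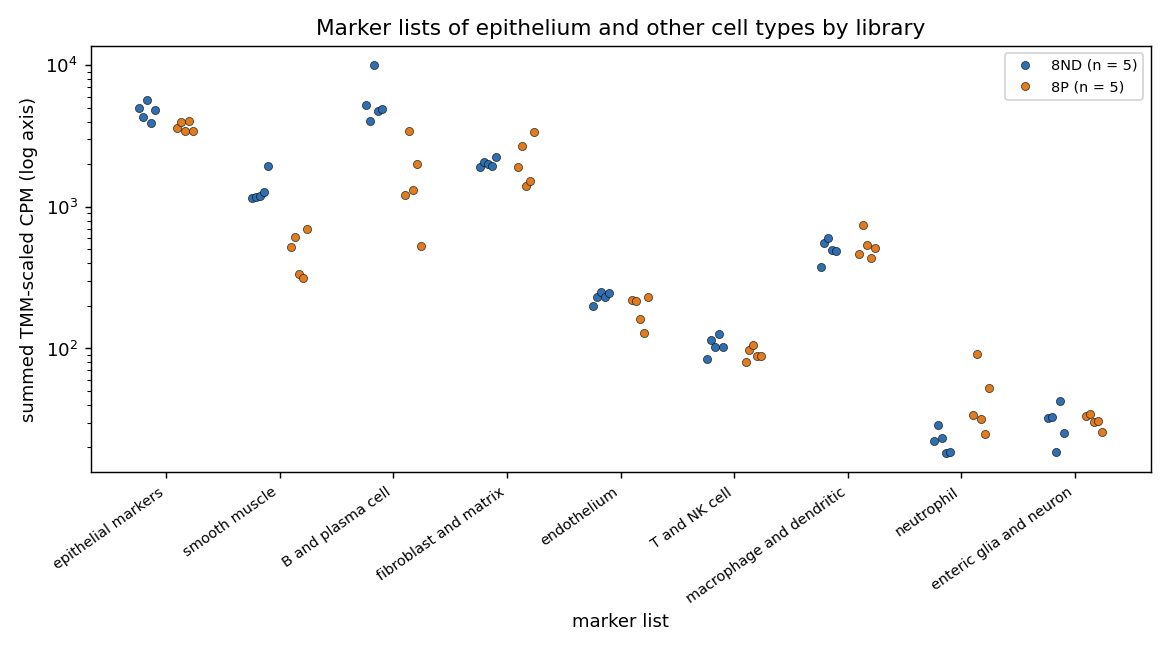
Summed CPM without TMM scaling (log axis) of marker lists of epithelium and of 8 other cell types. Each point is 1 library, 8ND in blue and 8P in orange. The axis title names TMM scaling, which these sums do not have. Smooth muscle (8ND 1148 to 1943, 8P 315.2 to 697.4) and B and plasma cell markers (8ND 4025 to 9991, 8P 527.7 to 3428) separate the groups, and the other lists overlap.

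Under the naming rule the smallest p-values did not belong to the genes with the largest folds. Ube2e2 read 21.8, 19.1, 14.6, 16.02 and 17.3 CPM in 8ND and 57.9, 44.1, 45.6, 60.3 and 48.6 CPM in 8P. Ube2e2, a ubiquitin-conjugating enzyme, rose by 1.53 ± 0.13 (adjusted p = 1.0e-06). Phldb2, a cortical scaffold protein, rose by 1.21 ± 0.10, Map4k4, a kinase of cell migration, by 1.27 ± 0.12, and Dock4, an exchange factor of Rac, by 1.35 ± 0.13. Atp11a read 113, 127, 80.6, 93.96 and 106 CPM in 8ND and 229.5, 229, 231, 229 and 237 CPM in 8P. Atp11a, a phospholipid flippase, rose by 1.15 ± 0.10 (adjusted p = 1.0e-06), with hardly any spread within 8P. Sgk2 read 7.47, 17.1, 14.9, 9.61 and 10.3 CPM in 8ND and 0.958, 1.09, 1.38, 0.985 and 1.21 CPM in 8P. Sgk2, a serine/threonine kinase, fell by 3.41 ± 0.28 (adjusted p = 1.0e-06). Ppif, cyclophilin D of mitochondria, fell by 1.60, St6galnac6, a sialyltransferase, by 2.02 and Prlr, the prolactin receptor, by 2.75. Tnxb, a matrix protein of connective tissue, fell by 2.81, in the same direction as the smooth muscle and Postn values above. Btnl1, Apol10a, Sycn and Cyp4f14 were among the 12 lowest folds, at -4.09, -4.00, -4.27 and -3.55, and Btnl1 encodes a butyrophilin-like protein that maintains intraepithelial T cells.

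Of 15 genes that the study had singled out on these libraries, 9 rose and 4 fell in 8P. Because 8ND libraries took part in that choice, the counts are not independent evidence of a direction. Thbs1 read 132, 101.2, 95.4, 75.5 and 91.4 CPM in 8ND and 294, 292, 188, 263 and 208 CPM in 8P. Thbs1, the matrix protein thrombospondin, rose by 1.33 ± 0.22 (adjusted p = 0.00023). Slc4a11, a transporter of protons and ammonia, rose by 1.37 ± 0.31 and Epha2 by 0.71 ± 0.21. T read 6.64, 3.96, 0, 0.801 and 1.75 CPM in 8ND and 13.99, 18.2, 8.04, 3.096 and 14.8 CPM in 8P. T, the mesoderm factor brachyury, rose by 2.09 ± 0.72 (adjusted p = 0.039), with no read in 8ND 3 and with 8P 4 inside the 8ND range, and it was called in 4 of 10 fits that each left out 1 library. Rims4, a presynaptic protein, fell by 2.62 and Rab11fip4, of endosome recycling, by 1.09. Spink4, a goblet cell peptide, fell by 1.35 and was called in 5 of those 10 fits, Lzts1 (0.98) in 3 and Tns4 (1.01) in 8. Zfp703 and Fut9, at 0.32 and -0.52, did not pass in any of them. Epha2 was no longer called without 8ND 3 or 8ND 5 (adjusted p up to 0.051), and the 9 genes that rose became 5 without 8ND 5.

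On FA-free chow the same contrast, 0P against 0ND, called 6562 genes (31.6%). Of the 5869 genes called on 8 mg/kg FA, 4129 were called there in the same direction, 70.4% of the first list and 62.9% of the second, and none in the opposite direction. Of the 1740 called on 8 mg/kg FA only, 1572 had the same sign on FA-free chow. The difference between the contrasts was tested as an interaction, and edgeR called 0 genes, with 2163 at an unadjusted p under 0.05 and 0.22 as the smallest adjusted p. DESeq2 called 81, limma-voom 0, and edgeR without 8ND 3 called 26. For the Wnt inhibitors the log2 fold changes on the 2 chows stood at 2.01 and 2.59 for Rnf43, 1.97 and 3.06 for Axin2, 2.50 and 4.71 for Nkd1, and 2.85 and 6.08 for Notum, 8 mg/kg FA first. For the goblet and endocrine genes they stood at -2.60 and -1.73 for Muc2, -2.03 and -2.26 for Atoh1, and -4.85 and -3.23 for Gcg. None of these pairs passed the interaction test.

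The 5 smallest interaction p-values were those of Cers3, Tubb2b, Dyrk3, Rem2 and Mid1ip1. Cers3 read 3.595, 3.25, 2.79, 2.67 and 2.47 CPM in 8ND and 12.2, 9.798, 16.2, 8.37 and 13.5 CPM in 8P. Cers3, a ceramide synthase of very long chains, differed by 2.01 on 8 mg/kg FA and by 4.80 on FA-free chow. Tubb2b, a β-tubulin, differed by 1.67 and 3.64, Dyrk3, a kinase that dissolves stress granules, by 1.75 and 4.01, and Rem2, a small GTPase, by 2.24 and 4.87. Mid1ip1, a regulator of fatty acid synthesis, was not called on 8 mg/kg FA (-0.26, adjusted p = 0.13) and rose on FA-free chow (0.67, adjusted p = 0.0012). The adjusted interaction p of all 5 was 0.22 or above.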

How the data were processed

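RNA of laser microdissected mouse colonic epithelium was sequenced in 18 libraries. Each table that the authors deposited holds whole-number counts by gene symbol for 1 library. They aligned reads with Bowtie to mm10 and counted them with HTSeq. The versions and the strand setting were not given in the sources used here. The last 5 lines of each table name no gene and were left out. In the 10 libraries compared they held 25.9 to 40.7% of reads as outside genes and 40.1 to 62.2% as not uniquely aligned, so that genes with near copies are undercounted.

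Counts from the deposited tables were tested with edgeR 4.0.16 in R 4.3.3 (quasi-likelihood, robust, TMM, 1 mean per group over all 18 libraries) on genes that passed filterByExpr with a minimum count of 10. Values with a Benjamini-Hochberg adjusted p under 0.05 were called. DESeq2 1.42.0, limma-voom 3.58.1, other scalings and filters, a replicate block and fits without single libraries were alternatives, and the script was tested on simulated data. The first-component values are from log2 CPM with 0.5 added. Positions are from GENCODE M21 (mm10) and promoters from RefSeq (GRCm38.p6).

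Genes were named by fold change (mean of at least 5 CPM, no overlap between groups), p-value, gain or loss in mean CPM, or as members of gene lists, and a few after their values were seen. The comparison and the lists were chosen with earlier results of these data known. Some genes are not reported here.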

Additional observations from a re-analysis of the deposited data

Results flagged for a closer look

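Within each group of 5 libraries, a library was set apart when its gap to the nearest of the others exceeded 0.71 of the group's range (Dixon's ratio). Of 616 groups, 2 for each named gene and for each library measure or marker sum looked at, 46 were set apart (7.47%), and chance sets apart about 1 in 20.

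8ND 1 stood apart as the highest library of its group for Avil (11.3 CPM, the others 4.27 to 5.65), Klf5 (896 CPM, the others 589 to 672) and Lyz1 (115 CPM, the others 9.08 to 38.6). 8ND 3 stood apart as the highest library of its group for Car4 (235 CPM, the others 52.3 to 95.3), Ciita (81.9 CPM, the others 22.8 to 39.8), Igkc (4602 CPM, the others 1284 to 2244), Lzts1 (2.898 CPM, the others 0.793 to 1.33), Mptx2 (90.6 CPM, the others 0.138 to 10.9), Nox1 (97.6 CPM, the others 28.1 to 36.98), Slc5a8 (336 CPM, the others 172 to 208), Tap1 (32.6 CPM, the others 14.7 to 19.7), Xbp1 (239.6 CPM, the others 166 to 182) and the summed B and plasma cell markers (9991 CPM, the others 4025 to 5227). 8ND 3 stood apart as the lowest library of its group for Apcdd1 (5.796 CPM, the others 19.6 to 24.02). 8ND 4 stood apart as the lowest library of its group for Mtap (9.08 CPM, the others 11.8 to 12.6). 8ND 5 stood apart as the highest library of its group for Erbb2 (112 CPM, the others 78.8 to 84.5), Hpgd (99.4 CPM, the others 55.3 to 67.9), Myh11 (1014 CPM, the others 512 to 645), Per1 (41.4 CPM, the others 26.96 to 29.8), Sult1a1 (91.02 CPM, the others 58.7 to 64.1) and the summed smooth muscle markers (1943 CPM, the others 1148 to 1270). 8ND 5 stood apart as the lowest library of its group for Tns4 (56.4 CPM, the others 109.5 to 126). 8P 1 stood apart as the highest library of its group for Tph1 (12.8 CPM, the others 1.196 to 3.17). 8P 2 stood apart as the highest library of its group for Bax (18.9 CPM, the others 9.01 to 11.1), H19 (50.7 CPM, the others 3.98 to 12.9), H2-Q2 (4.25 CPM, the others 2.03 to 2.603), Hk1 (61.5 CPM, the others 46.2 to 50.3), Muc1 (18.2 CPM, the others 1.97 to 5.69), Psmb8 (28.3 CPM, the others 9.28 to 11.6) and Sycn (7.51 CPM, the others 0.633 to 2.43). 8P 2 stood apart as the lowest library of its group for Cyp2b10 (0.9798 CPM, the others 2.23 to 2.62). 8P 3 stood apart as the highest library of its group for Ppargc1b (29.6 CPM, the others 17.8 to 20.4). 8P 3 stood apart as the lowest library of its group for Erich3 (119 CPM, the others 206 to 233), Kremen1 (28.8 CPM, the others 35.5 to 37.9), Map4k4 (249 CPM, the others 287 to 301) and Rem2 (4.79 CPM, the others 8.63 to 9.71). 8P 4 stood apart as the highest library of its group for Epcam (832 CPM, the others 516 to 595), Erbb2 (72.3 CPM, the others 47.4 to 51.8), Ncl (1289 CPM, the others 757 to 865), Ptprq (60.02 CPM, the others 2.395 to 12.01), Reg3b (307 CPM, the others 5.104 to 85.1) and Wfdc18 (302 CPM, the others 54.3 to 93.3). 8P 4 stood apart as the lowest library of its group for Aqp8 (0.141 CPM, the others 0.871 to 1.06). 8P 5 stood apart as the highest library of its group for Atp11a (237 CPM, the others 229 to 231), Cyp2c55 (11.8 CPM, the others 0.218 to 1.66) and Cyp4f14 (3.897 CPM, the others 0.871 to 1.66). No test of an explanation was made for these values.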

How the results depend on the processing

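Across the other settings the number of genes called in 8P vs 8ND ranged from 4970 to 6498, and no gene called with the main settings changed its sign in any of them. DESeq2 called 6498 and limma-voom 5812. Other scalings (DESeq2 size factors and upper quartile in edgeR) gave 5930 and 5936, no filter 5114, a minimum count of 50 gave 5131 and the 10 libraries alone 5058. Fits that each left out 1 library gave 4970 (without 8P 1) to 6415 (without 8P 2) calls, with 2375 to 3117 higher, 2495 to 3298 lower and 2302 to 2730 of at least 2-fold, 929 to 1131 higher and 1297 to 1656 lower. A minimum count of 50, which tests fewer genes, left 1707 of at least 2-fold, 702 of them higher. The interaction with chow was called for 0 genes in the main fit, 81 in DESeq2, 1 without a filter, and 0 to 26 when 1 library was left out, the 26 without 8ND 3, and the cause was not tested. The replicate numbers were also used as a block, which called 5328 genes. Same-numbered 8ND and 8P libraries had deviations that correlated at 0.277, -0.0956, 0.0141, 0.037 and 0.209, and not every library correlated best with its own number. The numbers were therefore not used as pairs, and whether libraries share an animal is not settled by these values. Of 300 genes named, 253 stayed on their side of the threshold under every other setting. Of 44 list counts of at least 4 members, 30 stayed within 1.5 times. The exceptions included enteroendocrine falls (16 to 8 at a minimum count of 50) and neutrophil rises (5 to 2 at that count). Another was the rises in the list of squamous and regeneration genes (7 to 4 without a filter). Low counts limit the scarce genes, and the shallowest library, 8ND 4, held 3500947 counts.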

Other observations

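Long non-coding genes were hardly covered by the gene lists, and those named here were chosen after their values were seen. Of 2239 tested, 242 rose and 188 fell. Mir17hg read 25.03, 25.998, 18.03, 20.02 and 19.005 CPM in 8ND and 47.3, 27.98, 82.2, 37.9 and 36.5 CPM in 8P. Mir17hg, the host transcript of the miR-17-92 cluster of growth-promoting microRNAs, rose by 1.10 ± 0.25 (adjusted p = 0.0025) without overlap between the groups. Gm830 rose by 2.92 ± 0.65, and Pvt1, a neighbor of Myc, by 0.87 ± 0.25, with overlap in the case of Pvt1. Meg3 read 38.7, 53.6, 25.4, 59.8 and 25.8 CPM in 8ND and 9.77, 12.8, 8.69, 8.94 and 10.3 CPM in 8P. Meg3, an imprinted transcript of the Dlk1-Dio3 domain, fell by 2.00 ± 0.26 (adjusted p = 2.4e-05), and all 5 8P libraries lay below the lowest 8ND library. Foxd2os read 32.9, 48.9, 36.3, 46.2 and 41.4 CPM in 8ND and 5.94, 5.88, 12.3, 2.39 and 10.7 CPM in 8P. Foxd2os, an opposite-strand transcript of the forkhead gene Foxd2, fell by 2.47 ± 0.41 (adjusted p = 0.00029), again without overlap. Snhg18, a host of small nucleolar RNAs, fell by 0.95, and Gas5, a host of the same kind, rose by 0.60 ± 0.13. The nuclear transcript Malat1 was the most abundant of those named, between 33602 and 53103 CPM in 8ND and between 48256 and 68442 CPM in 8P (0.45, adjusted p = 0.035), and Malat1 was no longer called without 8ND 3, 8ND 4, 8ND 5, 8P 1, 8P 3 or 8P 5 (adjusted p up to 0.093). Neat1, of the paraspeckle, was not called (-0.21, adjusted p = 0.41). Reads of opposite-strand transcripts could not be separated from those of their partners.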
